A study of Mus musculus with 2 samples.

Results

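Receptors on the cell surface that direct the movement and activation of blood and bone marrow cells, 9 in all, were followed in an osteoclast culture. They were the chemokine receptors Ccr1, Ccr2, Ccr3, Cx3cr1 and Cxcr4, the chemokine receptor-like gene Ccrl2, the sphingosine 1-phosphate (S1P) receptors S1pr1 and S1pr2, and the receptor tyrosine kinase Mst1r. These 9 genes were chosen by name from the 14884 genes that had an assembled locus in at least 1 library. The choice was made with earlier results of these data known, so their ranks among all genes are not independent of it. All 9 had a locus of their own, as did 14426 of these genes. The 339 genes with a shared locus and the 119 inside the locus of another gene were left out. All 9 receptors also passed the filter on low values, for which 1 library or both had to reach a TPM of 1. After both steps 13451 genes were left to compare. TPM (transcripts per 1000000) is a level per length of transcript, so that levels of different genes can be set side by side.

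The library M came from bone marrow cells of WT (wild-type) mice that received M-CSF, the growth factor of macrophages and their precursors. M-CSF together with RANKL, the cytokine that turns such precursors into osteoclasts, was given to the cells of the library MR. The labels describe 2 days with M-CSF and then 2 days in which RANKL was added in the osteoclast culture, whereas the culture method of the study has a longer RANKL phase. Strain, age and number of donor mice are not stated in the labels, and neither library carried a genetic change. There was 1 library per condition. No difference between M and MR therefore has a replicate check, no p-value was computed, and every interval given here is a 95% interval for counting error alone, derived from approximate read pairs.

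Chemokine receptors and S1P receptors span the membrane several times and signal through heterotrimeric G proteins. Chemokine receptors draw cells towards a source of chemokine, and receptors of the Gi class raise migration through PI3-kinase and Rac. S1P is a lipid that is high in blood and low in tissue. S1pr1 draws osteoclast precursors out of bone towards blood, and S1pr2 acts through G12/13 to repel cells from S1P. Mst1r, also called Ron, is a relative of the hepatocyte growth factor receptor Met and is activated by the plasma protein macrophage-stimulating protein, the product of Mst1.

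Of the 9 receptors, 7 lie on mouse chromosome 9, and Ccr1, Ccr3 and Ccr2 lie there near each other, within 151 kb that also hold Ccr1l1. Positions are those of GENCODE vM21 on GRCm38 (mm10). Ccr1 is at chr9:123962124-123968692 on the minus strand, Ccr3 at chr9:124021972-124031689 and Ccr2 at chr9:124101950-124113557, both on the plus strand. The neighbours are related in sequence, which bears on whether reads can be told apart. The stretch of coding sequence shown here was chosen because it is closely alike in the 3 neighbours, and capitals mark bases that differ from Ccr1.
Ccr1 coding bases 211 to 270: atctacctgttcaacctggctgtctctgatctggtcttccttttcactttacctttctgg
Ccr3 coding bases 223 to 282: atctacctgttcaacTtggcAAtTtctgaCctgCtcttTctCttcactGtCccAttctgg
Ccr2 coding bases 274 to 333: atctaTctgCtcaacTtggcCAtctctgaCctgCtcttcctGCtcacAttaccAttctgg

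In this stretch Ccr3 and Ccr2 each had 49 of 60 bases in common with Ccr1. Over the whole coding sequence, aligned pairs shared 69.8% of bases for Ccr1 and Ccr3, 65.2% for Ccr1 and Ccr2, and 64.3% for Ccr2 and Ccr3, each as a percentage of the shorter sequence. By the same alignment Mst1r, a receptor of another family, shared 58.7% with Ccr1, 59.2% with Ccr2, 61.0% with Ccr3 and 62.7% with S1pr1. The values of Ccr2 with its neighbours thus lie little above those of unrelated sequences. The closest relative of Ccr1 among the genes compared was Ccr1l1, with 76.8%. A read was 150 bases long, and of the 150-base windows of the coding sequence 0 of 916 in Ccr1 and 0 of 928 in Ccr3 were found in a transcript of another gene. For Ccr2 these were 3 of 970 windows (0.309%), and 110 of 1070 windows (10.3%) when the window was 50 bases long, so that a small part of its reads could be assigned elsewhere. Untranslated sequence was not compared in this way.

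The 250 bases before a RefSeq start site are shown for the receptors with the largest differences in each direction, Mst1r, Ccr1 and Ccrl2, and for Ccr3, the neighbour of Ccr1 whose level differed little. The sequences are from RefSeq on GRCm38.p6, written 5′ to 3′ on the strand of the gene. Capitals mark matches on either strand to motifs of factors with known roles in osteoclasts, namely the PU.1 core GAGGAA, the AP-1 site TGANTCA, the NFAT core GGAAA, the NF-κB site (GGGA and CC with any 4 bases between them) and the MITF E-box (CACGTG, with the variant CATGTG).
Mst1r, chr9:107906639-107906888, plus strand: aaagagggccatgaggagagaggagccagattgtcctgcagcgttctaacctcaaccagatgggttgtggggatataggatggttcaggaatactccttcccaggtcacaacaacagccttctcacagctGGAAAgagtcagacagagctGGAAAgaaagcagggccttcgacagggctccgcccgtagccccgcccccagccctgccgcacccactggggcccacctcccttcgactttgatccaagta
Ccr1, chr9:123968693-123968942, minus strand: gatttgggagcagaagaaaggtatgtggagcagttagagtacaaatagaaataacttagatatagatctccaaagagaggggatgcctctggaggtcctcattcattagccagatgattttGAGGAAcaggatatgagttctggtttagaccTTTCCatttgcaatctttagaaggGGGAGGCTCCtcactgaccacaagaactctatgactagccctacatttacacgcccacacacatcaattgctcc
Ccrl2, chr9:111057519-111057768, minus strand: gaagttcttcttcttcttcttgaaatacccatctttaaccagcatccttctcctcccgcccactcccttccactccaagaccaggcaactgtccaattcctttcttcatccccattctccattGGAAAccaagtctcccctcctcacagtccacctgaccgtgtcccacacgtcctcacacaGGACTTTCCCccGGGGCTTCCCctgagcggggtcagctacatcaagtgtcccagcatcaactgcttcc
Ccr3, chr9:124021721-124021970, plus strand: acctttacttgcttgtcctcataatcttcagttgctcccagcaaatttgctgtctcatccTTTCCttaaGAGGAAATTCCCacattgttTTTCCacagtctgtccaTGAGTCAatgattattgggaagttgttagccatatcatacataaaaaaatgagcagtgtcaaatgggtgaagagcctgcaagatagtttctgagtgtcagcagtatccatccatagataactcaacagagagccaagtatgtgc

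Of the 9 receptors, 8 had such a window, and where a gene had several windows the one furthest upstream was used. The NFAT core was found in 8 of 8 windows, beside 55.6% of all 32851 RefSeq windows. The shares over all windows count every window of a gene and so are not of the same kind. Not every window lies upstream of its gene. That of Ccr2, at chr9:124101933-124102182, lies downstream of another RefSeq start at 124101918 and within the assembled loci of both libraries. The window of Ccr3 lies downstream of another RefSeq start at 124017825. The second window of Mst1r, at an internal start site, held no NFAT core. The PU.1 core was found in 2 windows (23.3% of all windows), the AP-1 site in 1 (6.75%), the NF-κB site in 3 (17.6%) and an E-box in 0 (17.6%). The matches of Ccr3 to the PU.1 core, the NFAT core and the NF-κB site overlap each other, and in Ccrl2 a match to the NF-κB site overlaps the NFAT core. Both a receptor that was much higher in MR, Mst1r, and one that was much lower, Ccrl2, thus carry the NFAT core, and Ccr1 and Ccr3 both hold the PU.1 core. A match is a run of letters and not evidence of binding.

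The 9 receptors did not move together. Mst1r, Ccr1 and Cxcr4 were higher in MR, with a log2 ratio above 1, and Ccrl2, S1pr1, Ccr2 and S1pr2 were lower, with a log2 ratio below -1. Ccr3 and Cx3cr1 lay between these limits. Ratios are log2((TPM in MR + 1)/(TPM in M + 1)), which understates the difference of genes at low levels. A gene without an assembled locus in 1 of the libraries is listed at 0 there. Such a 0 is a missing locus and not a measured absence of RNA, and the ratio then depends on the 1 added to each level. Among all genes compared, 2857 were past the same limit upwards (21.2%) and 1782 downwards (13.2%), beside 3 and 4 of the 9 receptors. The median log2 ratio was 0.49 over the 9 receptors and 0.21 over all genes. Their summed level was 321 TPM in M and 468 TPM in MR. The median and the sum combine differences in opposite directions, which the plot of levels by library shows.

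**Figure D1:**
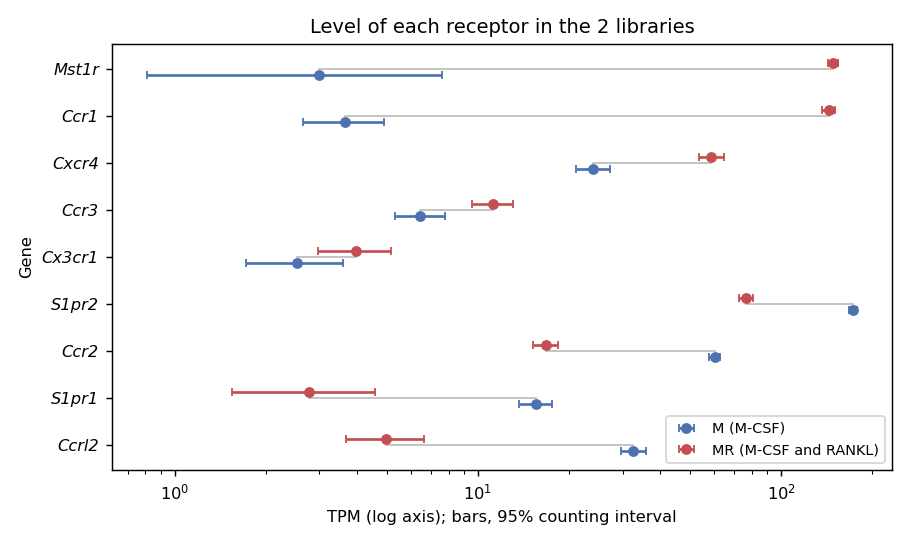
Level of each of the 9 receptors in TPM (log axis) in the library M (blue, M-CSF) and the library MR (red, M-CSF and RANKL), with 95% counting intervals as bars and a grey line joining both values of a gene. Mst1r and Ccr1 were at 2.98 and 3.65 TPM in M and at 148 and 144 TPM in MR, whereas S1pr2, Ccr2, S1pr1 and Ccrl2 lay lower in MR than in M.

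Ccr1 is a Gi-coupled receptor for several inflammatory CC chemokines, among them Ccl3, Ccl5, Ccl7 and Ccl9, and is known from osteoclasts as well as from monocytes and neutrophils. Its level was 3.65 TPM (2.64 to 4.91) in M, from about 43 read pairs, and 144 TPM (137 to 151) in MR, from about 1788 read pairs. Ccr1 moved from the lower part of the range, with 24.4% of genes below it in M, to the upper part, with 92.1% of genes below it in MR. The TPM ratio was 39.5, and the log2 ratio was 4.96 (4.61 to 5.30). Only 70 of the genes compared (0.520%) had a log2 ratio at least as high. The Ccr1 locus assembled in MR ran over 99.1% of the annotated exon bases and ended 1948 bases beyond the annotated 3′ end, and that of M ran over 73.5% of them.

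Ccr2, the receptor for Ccl2, Ccl7 and Ccl12 that brings inflammatory monocytes out of the bone marrow, differed in the other direction. It was listed at 60.4 TPM (57.7 to 63.1) in M and at 16.8 TPM (15.2 to 18.4) in MR, from about 1936 and 425 read pairs. The level was 3.60-fold higher in M, with a log2 ratio of -1.79 (-1.93 to -1.64), and 5.09% of genes had a ratio as low. In M the locus of Ccr2 covered 100% of its exon bases. In MR it covered 85.3% and ended 4266 bases before the GENCODE 3′ end, which is 151 bases beyond the RefSeq 3′ end at 124109140.

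Ccr3, best known as the eotaxin receptor of eosinophils, lies between Ccr1 and Ccr2 and differed far less than either neighbour. It was at 6.46 TPM (5.31 to 7.77) in M and at 11.2 TPM (9.56 to 13.1) in MR, from about 111 and 158 read pairs. The counting intervals did not overlap, and the level was 1.74-fold higher in MR, with a log2 ratio of 0.72 (0.40 to 1.02). In M the Ccr3 locus began 4127 bases upstream of the annotated start, within 20 bases of a second RefSeq start at 124017825. In MR it began 78 bases upstream of the annotated start. Of 8 eosinophil markers 5 had a locus, and their summed level was 25.4 TPM in M and 18.9 TPM in MR. Siglecf, Il5ra and Ear6 had no locus in either library. Prg2, an eosinophil granule protein, was at 16.1 TPM in M and 16.0 TPM in MR, above Ccr3 in both. Ear1 and Ear2 were at 2.27 and 4.09 TPM in M and listed at 0 in MR. Epx was at 1.19 TPM in M and 1.51 TPM in MR, and Prg3 at 1.69 and 1.39 TPM. The part of eosinophils in the Ccr3 level was not tested.

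These neighbours on chromosome 9 can be read gene by gene along the chromosome. Ccr1 was higher in MR, Ccr1l1, the close relative of Ccr1, was at 2.60 TPM in M and listed at 0 in MR, Ccr3 differed little, and Ccr2 was lower. Nearby genes therefore differed in opposite directions between the same libraries.

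Ccrl2 is built like a chemokine receptor but binds the attractant chemerin without passing on a signal and presents it to neighbouring cells. It lies at chr9:111054486-111057519 on the minus strand. Ccrl2 was at 32.6 TPM (29.6 to 35.8) in M and at 4.99 TPM (3.68 to 6.62) in MR, from about 441 and 48 read pairs. It was 6.53-fold higher in M, and its log2 ratio of -2.49 (-2.84 to -2.12) was the lowest of the 9 receptors. Among all genes 2.05% had a ratio as low. Cmklr1, the signalling receptor for chemerin, was at 46.8 TPM in M and 6.94 TPM in MR, a log2 ratio of -2.59 (-2.87 to -2.30). Rarres2, which encodes chemerin, had no locus in either library.

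Cx3cr1, the fractalkine receptor of patrolling monocytes and tissue macrophages, lies at chr9:119901616-120069879 on the minus strand. It was low in both libraries, at 2.53 TPM (1.72 to 3.60) in M and 3.95 TPM (2.97 to 5.15) in MR, from about 31 and 54 read pairs. The counting intervals overlapped, and the log2 ratio was 0.49 (0.01 to 0.94). The lower end of this interval lay next to 0, so that at this depth the difference in Cx3cr1 was barely larger than counting error. Its ligand gene Cx3cl1 had no locus.

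Cxcr4, the receptor for Cxcl12 that retains blood-forming cells and precursors in the bone marrow, lies at chr1:128588199-128592293 on the minus strand. It was at 24.0 TPM (21.1 to 27.2) in M and at 58.9 TPM (53.6 to 64.6) in MR, from about 242 and 455 read pairs. Cxcr4 was 2.46-fold higher in MR, with a log2 ratio of 1.26 (1.04 to 1.48), a value that 15.7% of all genes reached. The difference was thus larger than counting error but common among genes. Cxcl12 itself was at 1.76 TPM in M and listed at 0 in MR. Mif, another ligand of Cxcr4, was at 168 TPM in M and 525 TPM in MR, a log2 ratio of 1.64 (1.49 to 1.79).

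The 2 S1P receptors were both lower in MR, but by different amounts. S1pr1, at chr3:115710433-115715072 on the minus strand, was at 15.5 TPM (13.7 to 17.6) in M and 2.77 TPM (1.55 to 4.56) in MR, from about 261 and 15 read pairs. S1pr2, at chr9:20962361-20976781 on the minus strand, was at 173 TPM (168 to 178) in M and 76.7 TPM (72.8 to 80.7) in MR, from about 4189 and 1476 read pairs. S1pr1 was 5.62-fold and S1pr2 2.25-fold higher in M. The log2 ratios were -2.14 (-2.65 to -1.55) and -1.16 (-1.25 to -1.08), and these intervals did not overlap. S1pr2 was the more abundant S1P receptor in both libraries.

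S1pr1 is also a receptor of blood vessel endothelium. Of 7 endothelial markers 5 had a locus, with a summed level of 57.6 TPM in M and 77.3 TPM in MR, and Emcn and Cldn5 had none in either library. The values of the 5 went in both directions: Cdh5 was at 3.66 TPM in M and 1.77 TPM in MR, Pecam1 at 2.39 and 6.28, Vwf at 15.7 and 26.0, Kdr at 35.9 and 42.6, and Tek was listed at 0 and at 0.754 TPM. The part of endothelial cells in the S1pr1 level was not tested. The S1pr1 value of MR rests on a locus with 38.9% of the exon bases, which ended 1705 bases before the annotated 3′ end, whereas the locus of M covered 98.3%. S1pr3 was listed at 0 in M and at 1.51 TPM in MR, the latter from about 1 read pair, and S1pr4 and S1pr5 had no locus.

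Mst1r lies at chr9:107906873-107920383 on the plus strand, with 5007 exon bases. It was listed at 2.98 TPM (0.811 to 7.62) in M, from about 4 read pairs, and at 148 TPM (143 to 154) in MR, from about 3094 read pairs. By TPM Mst1r ranked highest of the 9 receptors in MR and second lowest in M, but neither rank was set apart by counting error. Its MR interval overlapped that of Ccr1, and its M interval held the levels of Ccr3, Ccr1 and Cx3cr1. By coverage, the read depth, Mst1r was below Ccr1 in MR, at 124 against 191. The TPM ratio was 49.8, and the log2 ratio of 5.23 (4.11 to 6.11) was reached by 56 genes (0.416%). The MR locus ran over the gene from end to end, beginning 2 bases inside the annotated start, with 5005 exon bases. In M the locus held 268 exon bases (5.35%) and began 10984 bases downstream of the annotated start. The M value is thus that of a short stretch near the 3′ end, downstream also of the internal RefSeq start at 107915003. In M, no locus covered the rest of the gene.

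**Figure D2:**
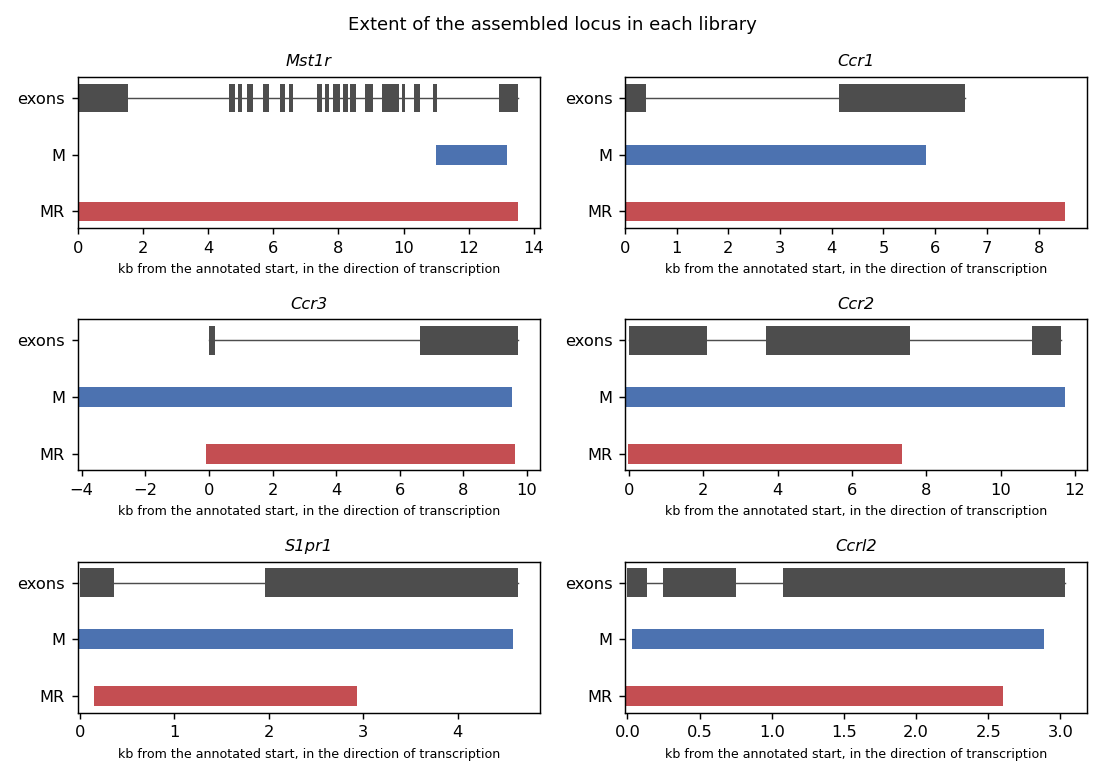
Extent of the assembled locus of 6 receptors in M (blue) and MR (red) below the exons of the gene in GENCODE vM21 (grey), in kb from the annotated start in the direction of transcription. The Mst1r locus of M begins 10984 bases into the gene, while that of MR covers the gene, and the S1pr1 and Ccr2 loci of MR end 1705 and 4266 bases before the annotated 3′ end.

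The locus ends bear on what a level stands for. The 9 receptors had 20 loci in the 2 libraries, 1 per library for 8 receptors and 2 per library for S1pr2. Of these loci, 5 in M and 4 in MR held 90% or more of their gene's exon sequence. No locus was shared with another gene, and 0 loci without a name lay on the other strand over the exons of a receptor. The main S1pr2 loci covered 54.7% of GENCODE exon bases in both libraries and ended at 20965969 in both, so that for S1pr2 the compared stretch was the same. That end is 17 bases short of the RefSeq 3′ end at 20965952, and both loci began within 16 bases of the RefSeq start. For Cx3cr1 the loci covered 48.5% of exon bases in M and 69.3% in MR, and for Ccrl2 93.0% and 83.4%. The Cxcr4 loci were near complete, with 99.8% and 96.6%.

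Ranked by level, the order in M was S1pr2, Ccr2, Ccrl2, Cxcr4, S1pr1, Ccr3, Ccr1, Mst1r and Cx3cr1. In MR it was Mst1r, Ccr1, S1pr2, Cxcr4, Ccr2, Ccr3, Ccrl2, Cx3cr1 and S1pr1. In M the intervals of the neighbours Ccr1 and Mst1r overlapped, as did those of Mst1r and Cx3cr1. In MR the intervals overlapped for Mst1r and Ccr1, for Ccrl2 and Cx3cr1, and for Cx3cr1 and S1pr1, so that these neighbours were not set apart by counting error. S1pr2 held a high level in both libraries, with 94.0% of genes below it in M and 85.1% in MR. Ccr2 had 83.0% of genes below it in M and 52.7% in MR, and S1pr1 55.0% and 16.6%.

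**Figure D3:**
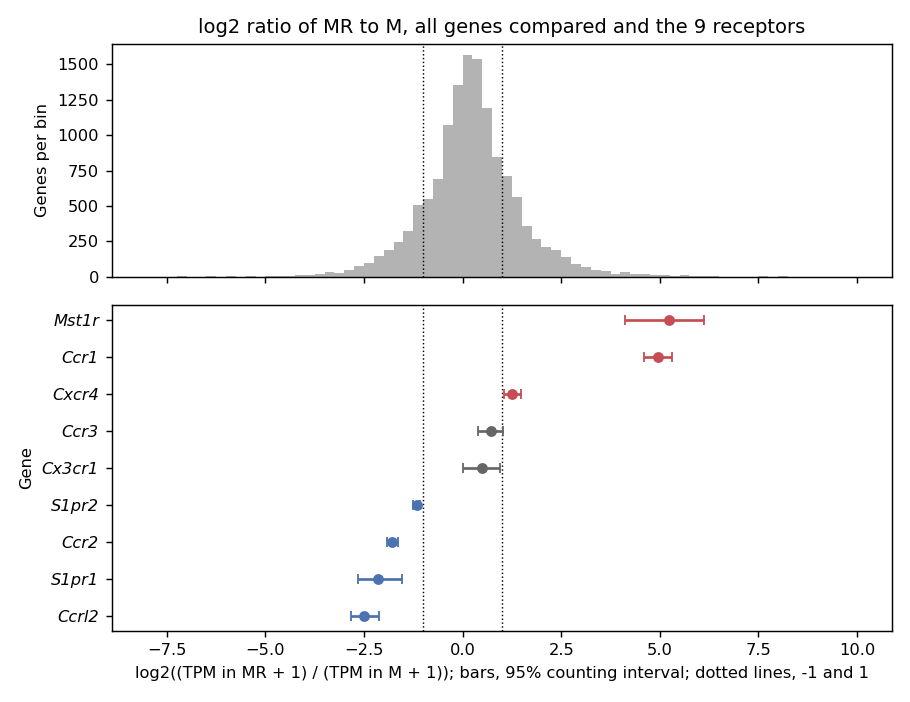
Number of genes per bin of log2 ratio of MR to M for the 13451 genes compared (upper panel), and the log2 ratio of each of the 9 receptors with its 95% counting interval (lower panel). Dotted lines mark -1 and 1. Mst1r (5.23) and Ccr1 (4.96) lie in the thin upper tail of the distribution, and S1pr2 (-1.16) and Cxcr4 (1.26) lie just past the dotted lines.

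Just inside and outside the limit lie S1pr2 at -1.16, Cxcr4 at 1.26 and Ccr3 at 0.72. The counting interval of Ccr3 reached 1.02 and so crossed the limit, whereas those of S1pr2 and Cxcr4 stayed past it.

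Other receptors of the same families were mostly low or without a locus. Of 20 further chemokine and chemerin receptors, 11 had no locus in either library, and 8 passed the filter on low values. Among these 2 were higher in MR, 5 were lower and 1 was neither, beside 21.2% higher and 13.2% lower over all genes. Each of 5 was listed at 0 in 1 of the libraries. Ccr7, which guides cells to lymph nodes, was at 2.61 TPM in M and listed at 0 in MR, and Cxcr5, the B cell follicle receptor, was at 3.21 TPM and listed at 0. The 2 higher ones rest on few reads. Ccr9 was listed at 0 in M and at 1.36 TPM in MR, from about 8 read pairs, and Cxcr6 was listed at 0 and at 1.48 TPM, from about 2. Cxcr3 was at 4.03 TPM in M and 1.25 TPM in MR, a log2 ratio of -1.16 (-1.83 to -0.19). Apart from Cmklr1, the lower ones rest on few reads as well. In M these were about 17 read pairs for Ccr1l1, 28 for Ccr7, 18 for Cxcr5 and 35 for Cxcr3. Cxcr2, the neutrophil receptor, was at 1.75 and 1.06 TPM. Of the 8 genes, Cmklr1 alone exceeded 10 TPM.

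The ligands of the 9 receptors were mostly lower in MR. Of 17 ligands, 13 passed the filter, 10 of them were lower in MR, 2 were higher and 1 was neither, and their median log2 ratio was -2.85. The shares over all genes were 13.2% lower and 21.2% higher. Ccl2, the main ligand of Ccr2, was at 867 TPM in M and 25.1 TPM in MR, and its log2 ratio of -5.05 (-5.34 to -4.76) was lower than that of Ccr2. Ccl7, which binds Ccr1, Ccr2 and Ccr3, was at 593 and 9.88 TPM, and Ccl12, another Ccr2 ligand, was at 306 and 8.90 TPM. Ligands of Ccr1 were lower as well. Ccl5 was at 2135 TPM in M and 130 TPM in MR, Ccl3 at 88.6 and 11.9 TPM and Ccl6 at 240 and 23.4 TPM. The related chemokine gene Ccl4 was at 255 and 34.6 TPM, and Ccl8 at 134 and 3.40 TPM.

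The level of 1 Ccr1 ligand differed less and in the other direction. Ccl9 was at 763 TPM in M and 1321 TPM in MR, with a log2 ratio of 0.79 (0.74 to 0.84), which is within the limits, and it was the most abundant ligand of the list in MR. Ccr2 and its ligands Ccl2, Ccl7 and Ccl12 were all past the limit downwards. Ccl24, an eotaxin and ligand of Ccr3, was at 2.85 TPM in M and 0.754 TPM in MR, the latter from about 1 read pair. Mst1, the gene of the Mst1r ligand, was at 0.751 TPM in M, from about 1 read pair, and 4.76 TPM in MR, a log2 ratio of 1.72 (0.08 to 2.41). Ccl11 and Ccl19 had no locus.

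**Figure D4:**
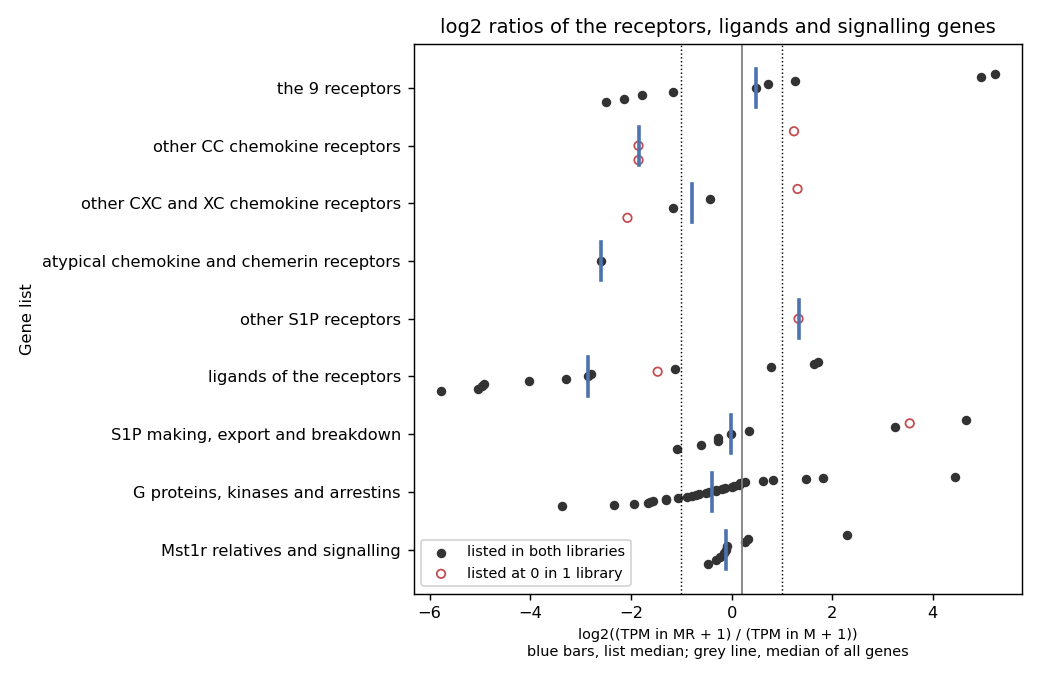
log2 ratio of MR to M for each gene of the receptor, ligand and signalling lists that passed the filter on low values, 1 row per list, with the list median as a blue bar, the median of all genes as a grey line and dotted lines at -1 and 1. Open circles are genes listed at 0 in 1 library. The ligands have a median of -2.85, whereas the 9 receptors are spread from -2.49 to 5.23.

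Genes that make, move and break down S1P differed in single members. Of 10 such genes, 9 passed the filter, 3 were higher in MR, 1 was lower and 5 were neither, with a median log2 ratio of -0.01. The shares over all genes were 21.2% higher and 13.2% lower. Spns2, the exporter that releases S1P from cells, was at 2.24 TPM in M, from about 4 read pairs, and 80.5 TPM in MR, a log2 ratio of 4.65 (3.59 to 5.45). Sphk1, a kinase that makes S1P, was listed at 0 in M and at 10.6 TPM in MR, while the related kinase Sphk2 was at 97.6 and 97.1 TPM. Plpp1, a lipid phosphate phosphatase, was at 4.83 TPM in M and 54.4 TPM in MR, a log2 ratio of 3.25 (2.85 to 3.63). The kinase and exporter genes Sphk1 and Spns2 were therefore higher in the library in which both S1P receptors were lower.

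The other S1P genes were closer in level. Plpp2 was at 23.9 TPM in M and 10.8 TPM in MR, a log2 ratio of -1.08 (-1.42 to -0.73), and Plpp3 at 8.56 and 6.91 TPM. Sgpl1, the lyase that degrades S1P, was at 179 and 229 TPM, and the phosphatase Sgpp1 was at 36.5 and 23.5 TPM. Mfsd2b, the S1P exporter of red blood cells and platelets, was at 3.34 and 2.56 TPM. Sgpp2 had no locus.

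Signalling genes downstream of the G protein-coupled receptors were more often past the limit downwards than upwards in MR. Of 32 genes for G proteins, receptor kinases, arrestins and Rac activators, 30 passed the filter. Of these 3 were higher in MR, 9 were lower and 18 were neither, beside 21.2% higher and 13.2% lower over all genes. The median log2 ratio of the list was -0.38. Grk3, a kinase that turns off active receptors, was at 4.42 TPM in M and 117 TPM in MR, a log2 ratio of 4.44 (4.21 to 4.66). Rgs1, which ends Gi signalling by speeding GTP hydrolysis, was at 116 TPM in M and 10.2 TPM in MR, a log2 ratio of -3.38 (-3.59 to -3.18). Gng2, a G protein gamma subunit, was at 99.9 and 18.9 TPM. These were the 3 largest differences of the list among genes with at least 10 TPM in 1 library.

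Genes related to Mst1r or acting below it differed little apart from Met. Of 10 such genes, 9 passed the filter, 1 was higher in MR and 0 were lower, with a median log2 ratio of -0.12. The shares over all genes were 21.2% higher and 13.2% lower. Met was at 4.48 TPM in M and 26.0 TPM in MR, a log2 ratio of 2.30 (1.92 to 2.66). The adaptor Grb2 was at 257 and 185 TPM, and the lipid phosphatase gene Inpp5d at 124 and 99.2 TPM. Both receptors of the Met family, Mst1r and Met, were thus higher in MR.

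Cell type markers were read beside these results. All 8 osteoclast markers were higher in MR, from 121 TPM in sum in M to 24835 TPM in MR. Ctsk, the collagen-degrading cathepsin, was at 53.1 and 12867 TPM and Acp5, the enzyme stained as TRAP, at 51.9 and 4947 TPM, while Oscar, Dcstamp, Ocstamp and Calcr were listed at 0 in M. Of 8 macrophage and monocyte markers, 4 were lower in MR and 0 higher, with sums of 5820 and 3537 TPM. Over all genes compared, 21.2% were higher and 13.2% lower. Csf1r, the M-CSF receptor, was at 697 and 872 TPM, Adgre1, which encodes F4/80, at 681 and 148 TPM, and the monocyte gene Ly6c2 at 403 and 109 TPM. Mrc1 and Fcgr1 were past the limit downwards like Adgre1 and Ly6c2, whereas Cd14, Cd68 and Itgam were within the limits like Csf1r. Itgam had a locus shared with another gene, a class left out of the genes compared. In such bulk libraries fewer cells of a type and less RNA per cell cannot be told apart, for Ccr2 as for the other receptors. Summed neutrophil markers, 9 of 9 with a locus, were at 1416 TPM in M and 964 TPM in MR. B cell markers were at 19.6 and 9.81 TPM (5 of 7 with a locus), T and NK cell markers at 14.8 and 9.82 TPM (2 of 8, with no locus for Cd3d, Cd3e and Cd3g), and mast cell and basophil markers at 6.50 and 6.60 TPM (4 of 9). Stromal and osteoblast markers were at 24.4 and 41.4 TPM (7 of 9), dendritic cell markers at 13.7 and 12.0 TPM (6 of 7) and erythroid markers at 6.41 and 3.27 TPM (3 of 7). The part of any of these cell types in a receptor level was not tested.

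The ratios were set against other ways of scaling and of counting loci. In all 9 alternatives each receptor had the same sign, and each kept its side of the limits of -1 and 1. Not all of these settings could move the receptors, since 8 of them had 1 stranded locus per library. Counting the most abundant locus alone, requiring 200 exon bases and leaving out unstranded loci returned the main values, apart from -1.15 for S1pr2. Agreement under those settings was given by the loci and is no check of the ratios. The median over the receptors did change sign, to -0.22, when a TPM of 10 was required. The log2 ratio of Ccr1 ranged from 4.60 to 5.27, that of Ccr2 from -1.96 to -1.50 and that of Cxcr4 from 1.08 to 1.29. Mst1r moved most, from 4.17 with coverage per aligned Gb to 5.59 with a pseudocount of 0.1 among the planned settings. When a locus had to hold at least 10% of the exon bases of its gene, a setting chosen after the data were seen, the short Mst1r locus of M was left out, Mst1r was at 0 in M, and the value of 7.22 then depends on the pseudocount.

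**Figure D5:**
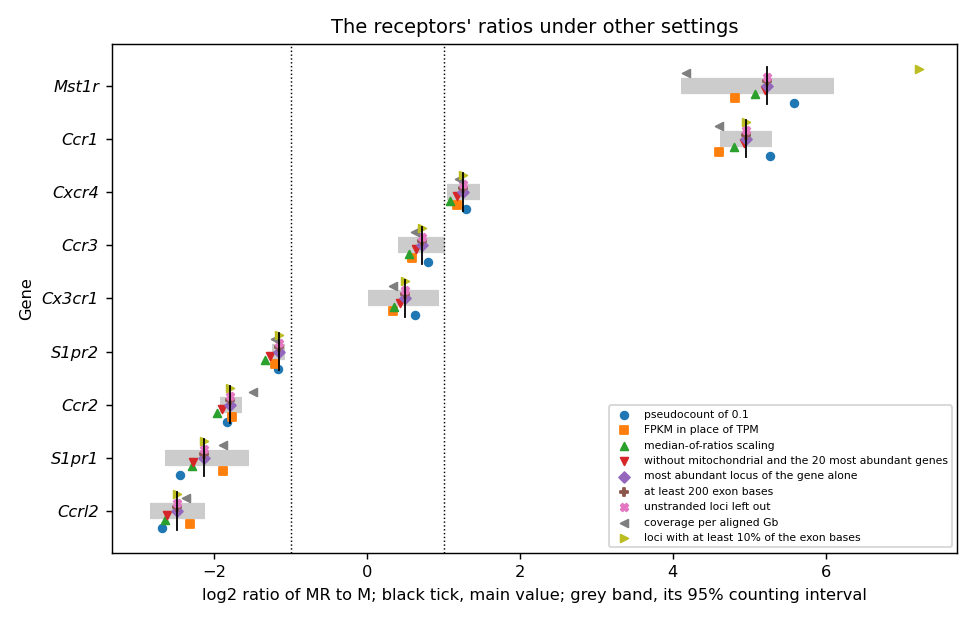
log2 ratio of MR to M of each receptor under the main setting (black tick) with its 95% counting interval (grey band), and under 9 other settings (coloured symbols), with dotted lines at -1 and 1. All symbols of a gene lie on the same side of 0, and Mst1r reaches 7.22 when loci with under 10% of the exon bases are left out.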

How the data were processed

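RNA-seq was measured in 2 libraries of WT bone marrow cells, M and MR. The authors trimmed paired reads with Trim Galore, aligned them to mm10 with HISAT2 and ran StringTie on GENCODE vM27. Versions are not given in the sources used here. The deposited tables give each locus a coverage (a read depth signal that is not normalized), an FPKM and a TPM, which the authors' table scales so that assembled loci alone sum to 1000000. Entries with gene names hold GRCm39 positions and were left out.

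Each assembled locus was given to the GENCODE vM21 gene whose exons overlapped it most (50 bases or more, strand permitting), and TPM was summed per gene. A locus that also held 50% of the exon bases of another gene was treated as shared. Genes with a shared locus or inside the locus of another gene were left out of the genes compared. In this way 15665 loci of M (95.4% of TPM) and 16523 of MR (96.9%) were given to genes. Ratios used a pseudocount of 1 and genes that reached a TPM of 1 in 1 library or both. The ratio of coverage to FPKM that was most frequent among loci with FPKM above 5 (33.6% of them in M, 36.3% in MR) gave aligned depths of 3.63 Gb and 2.98 Gb. Approximate read pairs were FPKM times this depth times transcript length, at 300 bases per pair. They gave exact Poisson intervals of levels and Wilson intervals of ratios at 95%, for counting error only. No reads were counted, so that read pairs are estimates.

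The members and lists were chosen with earlier results of these data known. Named genes were the 9 receptors, the listed ligands, receptors and S1P genes with TPM of at least 1, and the 3 largest differences of each other list with TPM of at least 10, beside osteoclast and macrophage markers. Single markers of other cell types were named after their values were seen. In simulated data of 5000 genes for MR against M, 98.04% of loci were given to their gene, 191 of 191 changed genes were recovered and 0 of 4572 unchanged genes passed. The simulated loci ran over nearly the whole gene, with little noise and with folds set well past the limit. The simulation therefore checks the assignment of whole loci only, and says nothing about short loci or few reads. Alternatives changed the pseudocount (0.1), the unit, the scaling, the filter, the threshold and the loci counted. Python 3.11.15, numpy 2.4.6, pandas 2.3.3, scipy 1.17.1, biopython 1.88 and matplotlib 3.10.9 were used. Protein sequences were not used, and 1 listed gene is not reported here.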

Additional observations from a re-analysis of the deposited data

How the results depend on the processing

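Of 140 alternative values, 127 stayed within the counting interval of the main value (for the median of the receptors, that of Cx3cr1, the middle gene) or within 1.5 times the main count, and 13 moved by more. Of these 1 changed sign, the median of the receptors, and no single receptor did. The 127 include values from settings that left the loci of the receptors as they were, so the count overstates how far the ratios were checked. The cause of the 13 moves was not tested except where the setting itself gives it. The log2 ratio of Ccr1 was 4.60 with FPKM in place of TPM and 4.60 with coverage per aligned Gb, that of Ccr2 was -1.96 with median-of-ratios scaling and -1.50 with coverage, that of Mst1r was 4.17 with coverage, within its counting interval, and that of S1pr2 was -1.34 with median-of-ratios scaling and -1.27 when mitochondrial genes and the 20 genes of highest level were left out. Mst1r reached 7.22 when only loci with at least 10% of the exon bases counted, an alternative added after seeing the data, because its M locus is then left out. With a log2 threshold of 2, 956 genes were higher and 520 lower in MR, beside 2 and 2 of the receptors. With a TPM of at least 10 in 1 library, 1597 genes were higher and 980 lower, and the median of the receptors was -0.22, against 0.49 for all 9, since Cx3cr1 is then left out and 8 remain. Median-of-ratios scaling moved the median of all genes from 0.21 to 0.04 and the share of genes with a ratio above 0 among those past the limit from 61.6% to 53.6%. No paired analysis was possible because each condition has 1 library, and no replicate could be left out. Depth limits the lowest values most, those of Mst1r in M (about 4 read pairs) and S1pr1 in MR (about 15).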
